A study of Homo sapiens with 12 samples.

Results

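The constitutive proteasome subunits were followed across single-cell-derived clones of PC9, a human lung adenocarcinoma cell line that carries an activating EGFR mutation. The members were the genes PSMA1 to PSMA7, PSMB1 to PSMB7, PSMC1 to PSMC6 and PSMD1 to PSMD14, chosen by gene symbol, and the inducible subunits and the PSME activators were left out. Of the 34 genes named in this way, 30 had a probe assigned to them on the Illumina bead array and all of these 30 were detected, through 43 detected probes. PSMA7, PSMC5, PSMD7 and PSMD13 were not analysed here. The 30 members stand among 12244 genes tested.

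Total RNA was measured on 12 arrays, 2 for each of 6 clones. The clones D6, E1, E2, E3 and E6 are labelled tolerant to gefitinib, an inhibitor of the EGFR kinase, and clone B7 is labelled sensitive. One treatment text, 14 days of gefitinib at 0.4 to 2 µM, stands on the samples of all 6 clones, which leaves unsaid whether B7 received the drug, and response and exposure cannot be told apart. Each clone is the progeny of 1 cell, the sensitive group is 1 clone, and nothing says that the 2 arrays of a clone came from separate cultures, so a p-value over arrays rests on an error that may be technical alone.

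The proteasome is the protease that degrades proteins tagged with ubiquitin in the cytosol and nucleus. Its core particle is a barrel of outer alpha rings, which form the gate, and inner beta rings, which hold the cutting sites. The regulatory particle caps the barrel: its base holds a ring of ATPases that unfold substrates together with scaffold and ubiquitin-receptor subunits, and its lid removes ubiquitin chains. Dividing cells depend on it to clear cyclins and other regulators, and proteasome genes are often transcribed together.

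Values are normalised intensities (background-corrected and quantile-normalised over the 12 arrays), or their log2, for the brightest detected probe of each gene. Levels of different genes are not compared here, since probes differ in brightness. Before normalisation the scanner signal had its 75th percentile at 80.2 in D6, 94.5 in E1, 118 in E2, 104 in E3 and 97.9 in E6, and 131 in B7. The number of detected probes ran from 19291 to 20274 per array, and arrays of 1 clone correlated at 0.995 to 0.997 (Pearson, across genes). All 7 epithelial markers examined were detected on all 12 arrays. Of the lung lineage genes, NKX2-1 and SFTPC were detected on 0, NAPSA on 5 and SFTPB on 3. Of 13 stromal, immune and endothelial markers with a probe, 7 were on no array, among them PTPRC, CD3E, VWF and COL1A2. The 5 on all 12 arrays were COL1A1, CD14, CD68, PECAM1 and CDH5. The summed intensity of the 13 was 4324 in D6, 4478 in E1, 1687 in E2, 2442 in E3 and 2881 in E6, and 1849 in B7. The CD68 probe, at log2 11.6 in D6 and E1, 9.55 in E2, 10.4 in E3, 10.9 in E6 and 10.1 in B7, had the largest share of this sum. The part of the sum in the results was not tested. In bulk RNA such as this, fewer cells of a kind and less RNA per cell cannot be told apart.

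Most subunits had lower transcript levels in the tolerant clones than in B7, and for 1 of them, PSMD2, the difference passed the test. Over the 30 members the median difference, the mean of the 5 tolerant clones minus B7, was −0.52 on the log2 scale, and 28 of 30 lay below 0. The median over all 12244 genes was 0.0047 and 49.6% of genes lay below 0. In limma's test on clone means, which assumes that the lone B7 varies like the tolerant clones, 1 member was called lower and 0 were called higher at an adjusted p under 0.05 (Benjamini-Hochberg over all genes, 2-sided). The background in this comparison was 1.44% of genes called lower and 1.40% called higher. Scaling the arrays by their medians in place of quantiles gave 329 genes lower and 132 higher, against 176 and 171. At an unadjusted p under 0.05 there were 12 of the 30 members (40%), all 12 lower. Of all genes 25.2% were at that level in either direction, 1564 of 12244 lower and 1525 higher. Without clone E2, 7 members were called lower, where 8.66% of all genes were, and without the first B7 array, 2 members were.

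For 19 of the 30 members all 10 tolerant arrays lay below both B7 arrays, an order found in 22.1% of all genes. The reverse order was found for 0 members and in 20.7% of all genes. The groups overlapped for the remaining 11, which were PSMA2, PSMA3, PSMA4, PSMA6, PSMB4, PSMC1, PSMC4, PSMC6, PSMD9, PSMD10 and PSMD11.

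**Figure D1:**
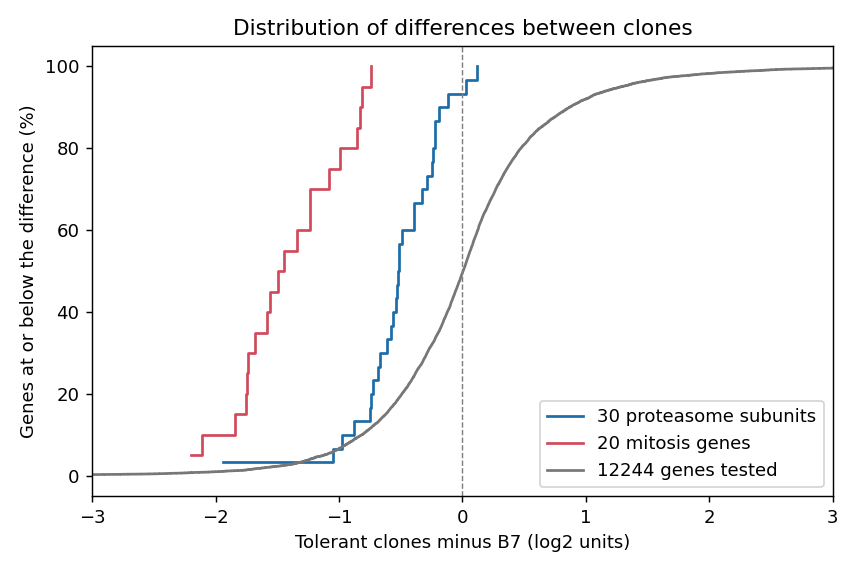
Cumulative share of genes (vertical axis, percent) at or below each difference between the mean of the 5 tolerant clones and B7 (horizontal axis, log2 units), for the 30 subunits, 20 mitosis genes and all 12244 genes tested. The curve of the subunits lies left of that of all genes over most of its length, with 28 of 30 below 0, and the mitosis genes lie farther left.

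Medians by position in the complex were taken with the brightest probe of each gene. The lid and the 3 base subunits that are not ATPases had the lowest medians and the alpha ring the highest. The median difference between the tolerant clones and B7 was −0.78 for the 6 lid subunits measured, −0.73 for those 3 base subunits, −0.56 for the 7 beta subunits, −0.39 for the 5 ATPases, −0.28 for the 3 PSMD-named assembly chaperones and −0.23 for the 6 alpha subunits. The second detected probes of PSMA1, PSMA4, PSMA6 and PSMA3 gave −0.59, −0.46, −0.29 and −0.25, each lower than the brightest probe. The place of the alpha ring above the chaperones thus depends on the probes chosen. Differences between these classes were not tested.

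**Figure D2:**
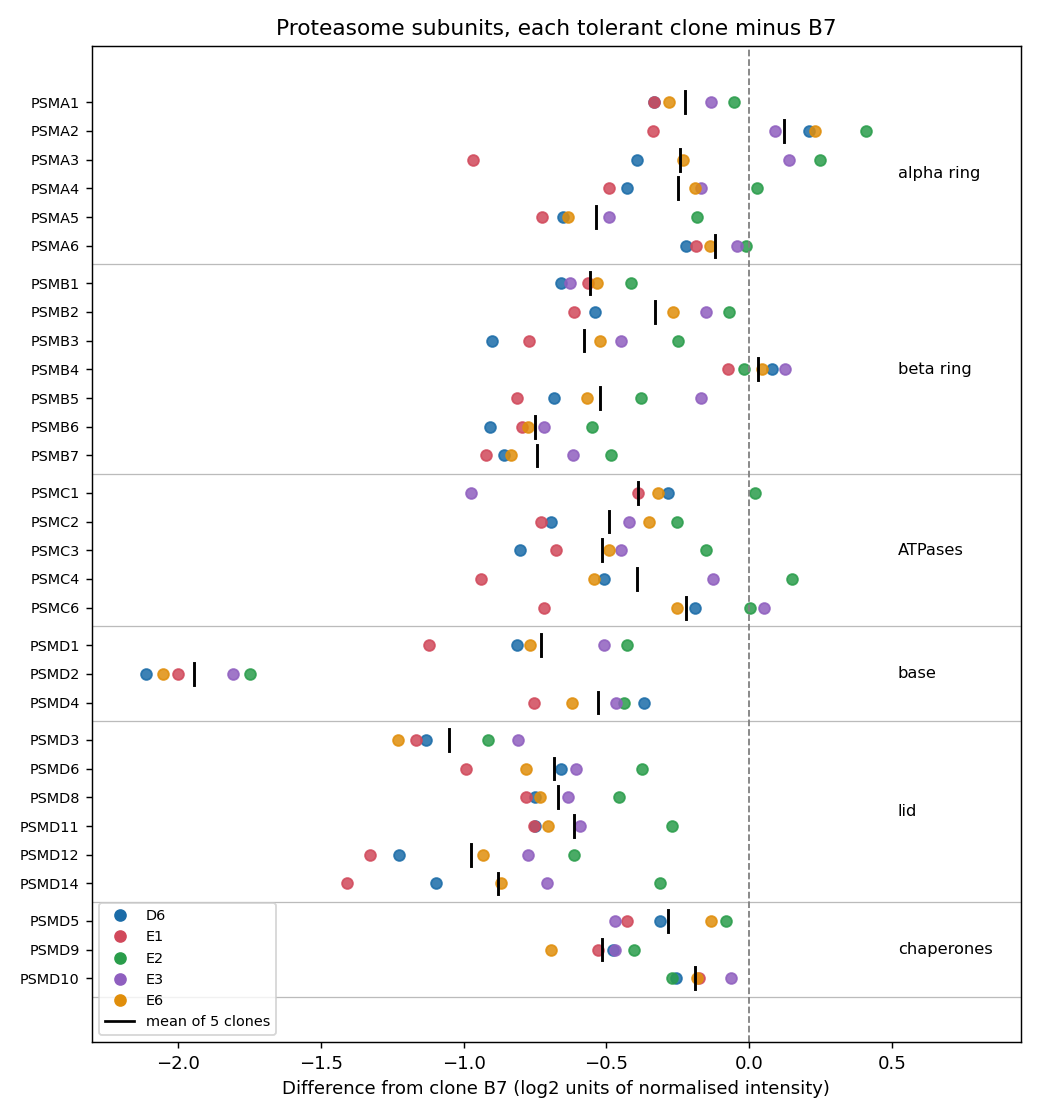
Difference of each tolerant clone from B7 (horizontal axis, log2 units) for the 30 subunits, grouped by place in the complex. Points are clone means over 2 arrays and the black tick is the mean of the 5 tolerant clones. PSMD2 stands apart at −1.94, most other ticks lie between −1.05 and 0, and E2 is the rightmost clone for most subunits.

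PSMD2, the large base scaffold also called Rpn1 that docks shuttle factors and a deubiquitinase, was the member called lower. It had a normalised intensity of 1408 at the lowest, 1660 at the median and 2025 at the highest over the 10 tolerant arrays, and of 6766 and 6280 on the B7 arrays. Every tolerant array thus lay far below both B7 arrays. The log2 difference between the tolerant clones and B7 was −1.94 ± 0.21 (SE, 5 clones against 1, limma adjusted p = 0.0103), which makes the level 3.85-fold higher in B7. It ranked 133 of 12244 genes counted from the most negative difference. Clone by clone it was −2.11 in D6, −2.0 in E1, −1.75 in E2, −1.81 in E3 and −2.05 in E6, the most negative member in each (limma over arrays, largest adjusted p 1.92e-07). A single probe reads PSMD2, so no second probe bears on this value.

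The other base scaffold, PSMD1 (Rpn2), had clone means of 964 in D6, 779 in E1, 1261 in E2, 1197 in E3 and 998 in E6, and 1611 and 1781 on the B7 arrays. The groups did not overlap. Its difference of −0.73 ± 0.28 between the tolerant clones and B7 did not pass over clones (limma adjusted p = 0.171). The ubiquitin receptor PSMD4 (Rpn10) differed by −0.53 ± 0.21 (limma adjusted p = 0.178), and its 3 detected probes gave −0.53, −0.58 and −0.53.

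Promoter sequences are shown for PSMD2 and for the 3 lid genes with the largest differences, PSMD3, PSMD12 and PSMD14, because these members lay farthest below B7. Each is the 250 bases before a RefSeq transcription start (build GRCh38.p14), 5′ to 3′ on the gene's strand. The regions are chr3:184298991-184299240 (plus strand) for PSMD2, chr17:39980557-39980806 (plus) for PSMD3, chr17:67366578-67366827 (minus) for PSMD12 and chr2:161308175-161308424 (plus) for PSMD14. Capitals mark 2 motifs searched on both strands: the core of the antioxidant response element, TGACNNNGC, which the proteasome gene regulator NFE2L1 and its relatives bind, and the CCAAT box bound by the NF-Y factor.
PSMD2: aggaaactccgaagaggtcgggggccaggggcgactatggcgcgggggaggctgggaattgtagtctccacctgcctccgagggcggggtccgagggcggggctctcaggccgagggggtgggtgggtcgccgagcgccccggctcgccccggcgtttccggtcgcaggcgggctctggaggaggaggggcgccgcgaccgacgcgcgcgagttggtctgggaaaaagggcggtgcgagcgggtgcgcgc
PSMD3: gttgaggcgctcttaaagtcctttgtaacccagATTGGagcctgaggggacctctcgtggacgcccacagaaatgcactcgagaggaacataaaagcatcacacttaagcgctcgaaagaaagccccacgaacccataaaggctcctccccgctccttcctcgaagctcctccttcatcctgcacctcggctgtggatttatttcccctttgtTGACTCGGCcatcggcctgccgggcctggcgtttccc
PSMD12: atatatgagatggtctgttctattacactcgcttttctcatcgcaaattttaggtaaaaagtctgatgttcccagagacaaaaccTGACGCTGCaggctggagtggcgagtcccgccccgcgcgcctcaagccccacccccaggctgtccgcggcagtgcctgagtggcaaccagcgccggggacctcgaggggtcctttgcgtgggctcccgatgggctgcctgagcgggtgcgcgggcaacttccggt
PSMD14: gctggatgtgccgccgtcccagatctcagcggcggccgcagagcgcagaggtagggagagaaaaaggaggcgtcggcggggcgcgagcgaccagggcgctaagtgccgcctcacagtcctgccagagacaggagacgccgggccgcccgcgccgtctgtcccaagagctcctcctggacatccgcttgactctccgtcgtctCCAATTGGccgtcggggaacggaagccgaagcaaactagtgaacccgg
PSMD3 held both motifs, the CCAAT box on the reverse strand, PSMD12 held the response element core, and PSMD14 held CCAAT on both strands with shared letters. Neither of the 2 start sites listed for PSMD2 held either motif, and the first is printed. No motif of one kind overlapped one of the other kind in these sequences. Over windows of 300 bases, 250 before the start and 50 after it, the response element core was in 9 of the 29 member genes with an entry, against 16.1% of 27305 genes, and CCAAT was in 16 of 29, against 39.7%. PSMA7, PSMB1, PSMB6, PSMB7 and PSMD4 had no entry. A match is a description of letters and not a site of binding.

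Of the lid subunits, 6 were measured and all 6 differences lay below 0, between −1.05 and −0.61, though 0 passed over clones. At an unadjusted p under 0.05 there were 5, all lower, against 1564 of all 12244 genes lower. PSMD3 (Rpn3), a structural lid subunit, had clone means of 183 in D6, 178 in E1, 213 in E2, 228 in E3 and 170 in E6, and 347 and 458 on the B7 arrays. The groups did not overlap, and the 2 B7 arrays were themselves apart. The difference between the tolerant clones and B7 was −1.05 ± 0.22 (limma adjusted p = 0.0585), and the call was gained under 5 alternatives: without clone E2, without the first B7 array, with a random block for clone, and under median or 75th percentile scaling. PSMD12 (Rpn5), another structural subunit, had 731 in D6, 676 in E1, 1110 in E2, 992 in E3 and 891 in E6, and 1584 and 1820 on the B7 arrays. E2 came nearest to B7 without reaching it. Its difference of −0.97 ± 0.30 did not pass over clones (limma adjusted p = 0.114).

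PSMD14 (Rpn11) is the metalloprotease that cuts ubiquitin chains off substrates as they enter. Clone means were 1108 in D6, 894 in E1, 1906 in E2, 1448 in E3 and 1298 in E6, and the B7 arrays had 2160 and 2595. All tolerant arrays were below both B7 arrays, E2 being nearest to them and E1 farthest. The difference between the tolerant clones and B7 was −0.88 ± 0.38 (limma adjusted p = 0.202), and the clones ranged over 1.09 log2 units.

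The lid subunit PSMD6 (Rpn7) had clone means of 3466 in D6, 2755 in E1, 4221 in E2, 3600 in E3 and 3181 in E6, and 5358 and 5581 on the B7 arrays. For PSMD8 (Rpn12) they were 923 in D6, 907 in E1, 1132 in E2, 1005 in E3 and 935 in E6, and 1434 and 1683 on the B7 arrays. All tolerant arrays of both subunits lay below B7. PSMD11 (Rpn6) had 211 in D6, 210 in E1, 297 in E2, 235 in E3 and 217 in E6, and 377 and 332 in B7, where 1 E2 array, at 342, lay above the lower B7 array. PSMD6, PSMD8 and PSMD11 differed by −0.68 ± 0.25, −0.67 ± 0.20 and −0.61 ± 0.24 between the tolerant clones and B7 (limma adjusted p = 0.156, 0.107 and 0.169).

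**Figure D3:**
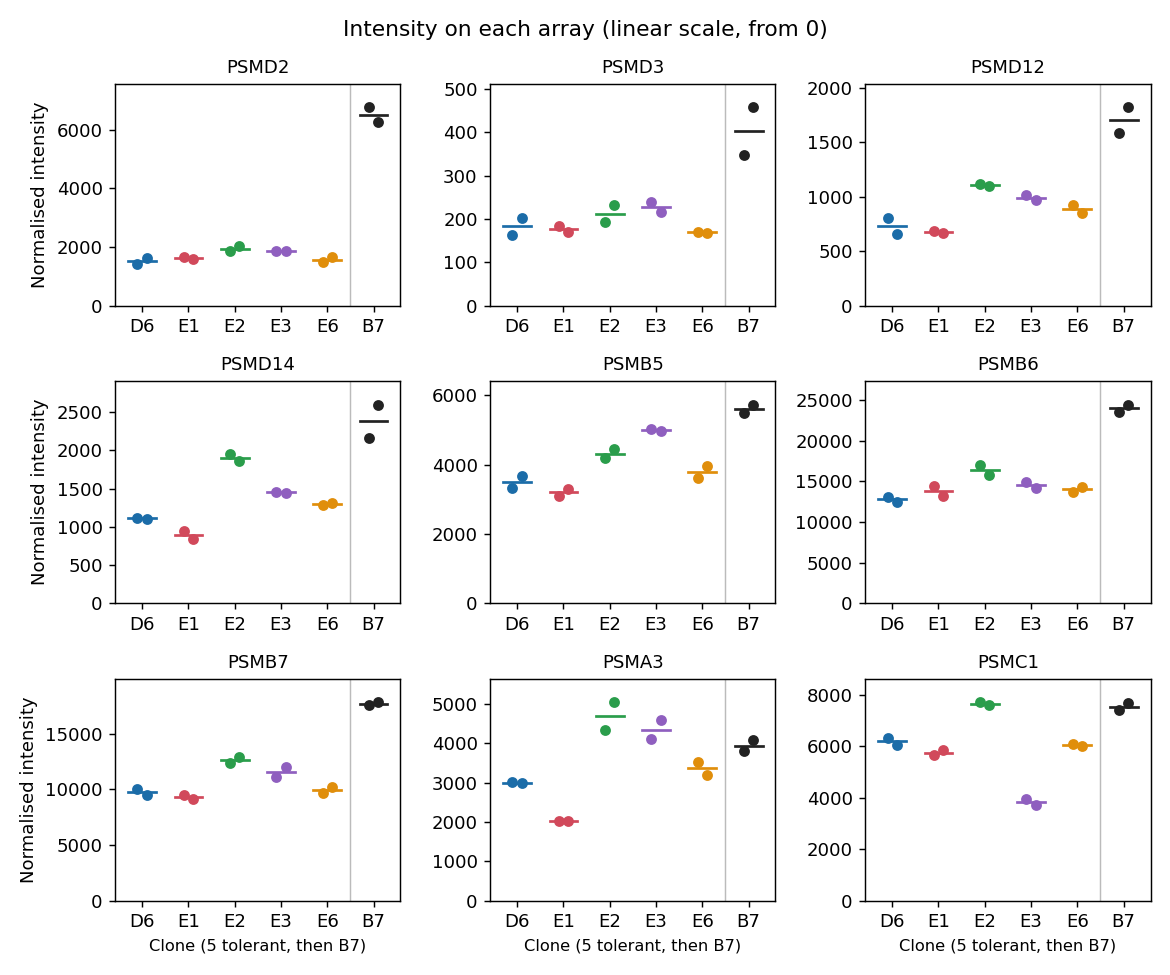
Normalised intensity (vertical axes, linear from 0) on each array for 9 subunits, with the 5 tolerant clones left of B7. Points are arrays and bars are means over the 2 arrays of a clone. PSMD2 is between 1408 and 2025 in all tolerant arrays and at 6280 or more in B7, whereas PSMA3 and PSMC1 differ mainly among the tolerant clones.

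Among the beta subunits, the cutting sites sit on PSMB5 (chymotrypsin-like), PSMB6 (caspase-like) and PSMB7 (trypsin-like). PSMB6 had clone means of 12783 in D6, 13840 in E1, 16408 in E2, 14600 in E3 and 14038 in E6, and 23554 and 24439 on the B7 arrays. PSMB7 had 9764 in D6, 9335 in E1, 12647 in E2, 11556 in E3 and 9939 in E6, and 17561 and 17821 on the B7 arrays. For both, every tolerant array was below B7. The differences between the tolerant clones and B7 were −0.75 ± 0.20 for PSMB6 and −0.74 ± 0.22 for PSMB7 (limma adjusted p = 0.0882 and 0.113).

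PSMB5, the main target of bortezomib, had 3495 in D6, 3197 in E1, 4317 in E2, 4995 in E3 and 3792 in E6, and 5498 and 5729 on the B7 arrays. Here E3 and not E2 came nearest to B7. The difference of the tolerant clones was −0.52 ± 0.27 (limma adjusted p = 0.265).

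The beta subunits without a cutting site of their own were split. PSMB1 had 13042 in D6, 13971 in E1, 15497 in E2, 13312 in E3 and 14211 in E6, and 21861 and 19338 on the B7 arrays. PSMB3 had 6522 in D6, 7133 in E1, 10258 in E2, 8924 in E3 and 8489 in E6, and 12004 and 12358 on the B7 arrays. Both were below B7 on every tolerant array. PSMB1 and PSMB3 differed by −0.56 ± 0.18 and −0.58 ± 0.27 between the tolerant clones and B7, PSMB2 by −0.33 ± 0.26, and PSMB4 by 0.03 ± 0.18 (limma adjusted p = 0.128, 0.233, 0.457 and 0.931). PSMB4 had 4892 in D6, 4410 in E1, 4574 in E2, 5050 in E3 and 4781 in E6, and 4526 and 4739 on the B7 arrays, so the groups overlapped. PSMB4 was the member with the highest difference in E1, at −0.07. Under median scaling PSMB4 stood at −0.31, with the median of all genes at −0.20.

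The inducible counterparts of the cutting subunits went the other way: PSMB8 differed by 1.62 ± 0.25 and PSMB10 by 1.69 ± 0.21 between the tolerant clones and B7 (limma adjusted p = 0.025 and 0.0161). PSMB9 was detected on all 10 tolerant arrays and on 0 of the B7 arrays, and the tolerant clones held at least 3.51-fold more (limma adjusted p = 0.0353), a bound set by the lowest signal among detected probes.

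**Figure D4:**
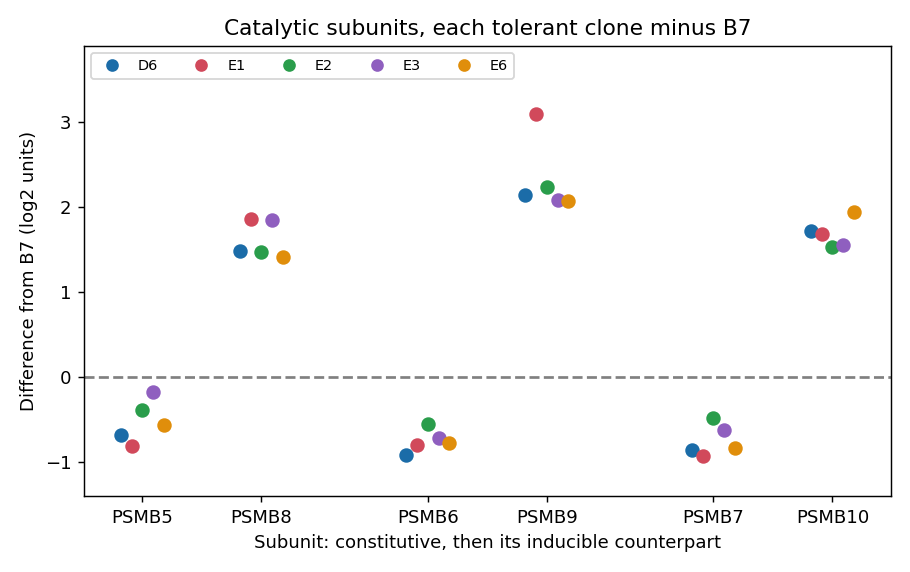
Difference of each tolerant clone from B7 (vertical axis, log2 units) for the constitutive cutting subunits PSMB5, PSMB6 and PSMB7 and, beside each, its inducible counterpart PSMB8, PSMB9 or PSMB10. All points of the constitutive subunits are below 0 and all points of the counterparts above it, and PSMB9 was not detected in B7, so its height is a fitted value and not a measured fold.

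The alpha subunits form the outer rings and gate, and 0 of the 6 were called or had an unadjusted p under 0.05 over clones. PSMA5 was the lowest, with clone differences from B7 of −0.65 in D6, −0.73 in E1, −0.18 in E2, −0.49 in E3 and −0.63 in E6, and a mean of −0.54 ± 0.24 (limma adjusted p = 0.220). PSMA1, PSMA3, PSMA4 and PSMA6 had differences between −0.25 and −0.12, with adjusted p of 0.501 or more by limma. PSMA2 was the one alpha subunit above 0, at 0.12 ± 0.28 (limma adjusted p = 0.823), and under median scaling PSMA2 stood at −0.24.

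The ATPases, which unfold substrates and open the gate, had differences from −0.51 to −0.22 with 0 called over clones and 0 at an unadjusted p under 0.05. PSMC3 (Rpt5) and PSMC2 (Rpt1) were lowest, at −0.51 ± 0.26 and −0.49 ± 0.24 between the tolerant clones and B7 (limma adjusted p = 0.265 and 0.250). PSMC1, PSMC4 and PSMC6 overlapped between the groups. PSMC4 (Rpt3) had 1523 in D6, 1130 in E1, 2410 in E2, 1981 in E3 and 1487 in E6, and 2179 and 2149 on the B7 arrays. With this probe only E2 was above B7, and the other detected PSMC4 probes gave −0.25 and 0.10 for E2 minus B7. The 3 chaperones PSMD5, PSMD9 and PSMD10, which help to assemble the base and are not in the finished particle, differed by −0.28, −0.52 and −0.19. PSMD9 was detected on 11 of 12 arrays.

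For 10 subunits more than 1 probe was detected, 23 probes in all. In the mean of the tolerant clones minus B7, the probes differed in sign for 0 of them. The largest gap between probes of a subunit was 0.39 log2 units there. In single clones the signs could differ. PSMC6 in E6 minus B7 was at −0.25 with its brightest probe, which was called lower, and at 0.22 with the second. PSMA1 gave −0.23 and −0.59 between the tolerant clones and B7 with its 2 probes. The other 20 members rest on 1 detected probe each.

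The clones were next compared with B7 one at a time over arrays, with an error taken from the 2 arrays of each clone. D6 had 26 members lower and 0 higher, against 32.4% of genes lower and 32.0% higher. E1 had 26 lower and 0 higher (33.1% and 32.4% of genes), with all 30 differences below 0 and a median of −0.74. In E6 23 were lower and 0 higher (31.3% and 30.1%), and in E3 18 were lower and 0 higher (30.0% and 29.5%). E2 stood nearest to B7, with 14 lower and 1 higher, against 22.7% and 24.5% of genes, and a median of −0.26. The 14 became 8 without the second B7 array and 9 without the first E2 array. Called lower in all 5 clones were 12 members, against 14.0% of all genes, namely PSMB1, PSMB3, PSMB6, PSMB7, PSMD1, PSMD2, PSMD3, PSMD4, PSMD6, PSMD8, PSMD12 and PSMD14, and 0 were called higher in all 5, against 14.6%. These 5 comparisons share the B7 arrays. At an unadjusted p under 0.05, 0 members were higher in D6, E1 or E3, 1 in E6 and 2 in E2. Of all 12244 genes, 4105 were higher at that level in D6, 4135 in E1, 3857 in E3, 3901 in E6 and 3360 in E2.

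E2 had the classes at different places. Its alpha subunits had a median difference from B7 of 0.0095 with 0 of 6 called lower (1 at an unadjusted p under 0.05). Its ATPases had a median of 0.0045 with 0 of 5 called (1 lower at an unadjusted p under 0.05). At that level 3161 of all 12244 genes were lower in E2. Other detected probes of the alpha subunits gave lower values in E2: −0.32 for PSMA1, −0.19 for PSMA4, −0.16 for PSMA6 and 0.10 for PSMA3. For the ATPases they gave −0.0029 for PSMC1, −0.25 and 0.10 for PSMC4, and 0.08 for PSMC6. These differences between classes were not tested. Called lower in E2 were 5 of 7 beta subunits, 5 of 6 lid subunits and, in the base, the 3 subunits that are not ATPases, against 22.7% of all genes. The member called higher in E2 was PSMA2, at 0.41 (limma adjusted p = 0.00589), and under median scaling 0 members were called higher there. PSMA2 had 604 in E2, 533 in E6, 524 in D6, 483 in E3 and 360 in E1, and 453 and 454 on the B7 arrays.

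Set against the mean of the other 4 tolerant clones, E2 had 23 members higher and 0 lower, where 26.4% of genes were higher and 26.7% lower. E2 was the highest tolerant clone for 24 of 30 members, against 28.4% of all genes. Its largest differences were PSMD14 at 0.71, PSMC4 at 0.68, PSMA3 at 0.61 and PSMC1 at 0.51 (limma, largest adjusted p 7.51e-05). E1 was the opposite, with 18 lower and 0 higher (22.3% and 24.0% of genes), and it was the lowest tolerant clone for 19 members, against 21.9% of genes. The 18 became 11 without the second E1 array. D6 had 10 lower and 0 higher (19.8% and 18.2%), which became 4 lower without its second array, 5 without its first and 24 under median scaling. E3 had 6 higher and 2 lower (15.5% and 16.3%), the 6 becoming 3 without its second array and 13 under median scaling, and the 2 becoming 1 without either E3 array or under median scaling. For D6, E1 and E3, the shares of all genes after leaving out an array or under median scaling are not given here. E6 had 0 higher and 0 lower in limma's test (16.5% and 16.4%). At an unadjusted p under 0.05 it had 1 higher and 1 lower, against 2663 and 2603 of all 12244 genes. At that level 0 members were lower in E2, against 3561 genes. In E1 0 were higher, against 3330 genes, and in D6 2 were higher, against 2713.

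A list of 20 mitosis genes, chosen as cell division markers, had median differences from B7 of −1.24 in E6, −1.65 in E3, −1.72 in E1 and −2.51 in D6. Over arrays all 20 were called lower in each of these, where 30.0% to 33.1% of all genes were. In E2 the median was −0.11, with 4 higher and 4 lower, against 24.5% and 22.7% of all genes. The test on clone means called no mitosis gene higher or lower. Against the other tolerant clones all 20 were higher in E2 over arrays, with a median of 1.75, where 26.4% of all genes were higher. E2 also had the brightest arrays of the tolerant clones. The part of either in the values of the proteasome subunits was not tested.

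A moderated F test over the 5 tolerant clones called 22 of the 30 members different among them, against 73.0% of all genes. The standard deviation over the tolerant clones had a median of 0.21 log2 units over the members and of 0.24 over all genes. The widest members were PSMA3, PSMD14, PSMC4 and PSMC1, with ranges of 1.21, 1.09, 1.09 and 1.00. PSMA1, PSMA6, PSMB1, PSMB4, PSMD3, PSMD8, PSMD9 and PSMD10 did not pass.

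PSMA3 was lowest in E1 and PSMC1 in E3. The gap to the next clone was 0.472 and 0.588 of the range over the tolerant clones, under Dixon's critical value of 0.71 for 5 values. PSMA3 averaged 2016 in E1, with 4693 in E2, 4352 in E3, 3366 in E6 and 3001 in D6, and 3812 and 4079 on the B7 arrays. In E1 it differed from the other tolerant clones by −0.91 log2 units (limma adjusted p = 9.28e-06). It was the highest member in E3, at 0.14 above B7 (limma adjusted p = 0.249). PSMC1 (Rpt2), an ATPase whose tail helps to open the gate, averaged 3829 in E3, with 6176 in D6, 5744 in E1, 7638 in E2 and 6028 in E6, and 7386 and 7665 on the B7 arrays. In E3 it differed from the other tolerant clones by −0.73 (limma adjusted p = 1.26e-05). The second PSMC1 probe gave a difference of −0.93 between E3 and B7, beside −0.98 for the first. Over all members, 26 of 30 lay above 0 in E3 against the other tolerant clones, and the 6 called higher were PSMA3 (0.48), PSMB5 (0.44), PSMC6 (0.34), PSMC4 (0.33), PSMD1 (0.27) and PSMB2 (0.22).

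Of 49 other genes of the pathway, 42 were tested between the tolerant clones and B7, with 4 higher, 0 lower and 27 differences below 0. Of all genes 1.40% were higher, 1.44% were lower and 49.6% lay below 0. Beside the unadjusted counts that follow, 1525 of all 12244 genes were higher and 1564 lower at an unadjusted p under 0.05. Apart from the inducible subunits the gene that passed was PSME1, a subunit of the activator that caps the core in place of the regulatory particle, at 1.36 ± 0.19 (limma adjusted p = 0.0192). In its list, PSME2, PSME3 and PSME4 differed by 0.41 ± 0.32, −0.98 ± 0.36 and −0.68 ± 0.20 (limma adjusted p = 0.465, 0.156 and 0.107). PSME3 and PSME4 were lower at an unadjusted p under 0.05. Of 7 assembly factors 0 were called (2 lower at an unadjusted p under 0.05), and the largest difference was that of ECPAS, a scaffold that binds the proteasome, at −1.24 ± 0.29 (limma adjusted p = 0.0712). Of 8 further regulatory particle proteins and associated enzymes 0 were called (1 higher and 3 lower unadjusted), and the ubiquitin receptor ADRM1 (Rpn13) was lowest at −0.97 ± 0.32 (limma adjusted p = 0.128). Of 9 shuttle factors and segregase genes measured 0 were called (2 lower unadjusted), NPLOC4, a cofactor of the segregase VCP, being lowest at −0.84 ± 0.19 (limma adjusted p = 0.0666).

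Ubiquitin genes and activating enzymes, 3 measured, had 0 calls (0 unadjusted), with UBA1, the main ubiquitin-activating enzyme, at −0.34 ± 0.25 (limma adjusted p = 0.416). The transcription factors of proteasome genes and the enzyme that processes one of them, 8 measured, had 0 calls (1 lower unadjusted). MAFF, a small MAF partner, had the largest difference at −0.84 ± 0.45 (limma adjusted p = 0.288). NFE2L1, named here for its role after its value was seen, differed by 0.36 ± 0.23 between the tolerant clones and B7 (limma adjusted p = 0.366).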

How the data were processed

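Biotin-labelled cRNA from total RNA (mirVana kit; Ambion MessageAmp, per the labels' protocols) was read on Illumina bead arrays. The deposited scanner intensity values have background already subtracted, since 26.6% to 28.4% of values are below 0, and their detection p-value cells are empty. The authors' processed intensity values are linear with a floor at 20, and their normalisation method is not given in the sources used here. The scanner intensities were corrected with normexp (saddle, offset 16), quantile-normalised over 12 arrays and put on log2 (limma 3.58.1, R 4.3.3). Noise was the root mean square of the negative values. A probe counted as detected above 2.33 times the noise, and was kept if both arrays of any clone detected it (21897 of 47229 probes). Of all probes 30112 had 1 gene, 8 several and 17109 none. The brightest kept probe stood for a gene.

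Tolerant clones were compared with B7 on clone means (4 residual degrees of freedom), and single clones over 12 arrays (6). P-values were adjusted over all genes by Benjamini-Hochberg, 2-sided. Named were all members, and of each pathway list the genes called or else the one with the largest difference. The members and lists were chosen with earlier results of these data known. Deviations of same-numbered arrays correlated at −0.026 to 0.054 over 15 pairs of clones, and replicate numbers were not used to pair samples. These correlations cannot tell whether same-numbered arrays were handled together. In simulated data 200 of 12244 genes were changed, and for clone means B7 was given the spread of the tolerant clones. There the test on clone means recovered 22.8% of genes changed by 1 log2 unit, 70.7% at 2 and 95.2% at 4. The test of D6 against B7 over arrays recovered 91.1% at 1 log2 unit. A member without a call on clone means may therefore still differ. In the real data 25.2% of genes had an unadjusted p under 0.05 on clone means (limma), so recovery there may not be the same. The number of clones, with 1 sensitive clone, limits the comparison of the tolerant clones with B7, and the 2 arrays per clone limit the comparisons of single clones.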

Additional observations from a re-analysis of the deposited data

Results flagged for a closer look

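PSMA2, an alpha subunit, had clone means that ranged over 0.74 log2 units among the tolerant clones, and stood out because tolerant clones lay on both sides of B7. It was called higher in E2 (0.41, limma adjusted p = 0.00589) and lower in E1 (−0.33, limma adjusted p = 0.0112), and the moderated F test over the tolerant clones gave an adjusted p of 0.00059. Under median scaling 0 members were called higher in E2. The gene rests on a single probe.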

How the results depend on the processing

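Over the alternatives to the comparison of the tolerant clones with B7, 0 members were called higher under any and PSMD2 was called lower under all. Between 27 and 30 members lay below 0. PSMD9 was tested under 26 of the 27 alternatives, and only PSMA2 and PSMB4 lay above 0 under any. Of 809 pairs of a member and an alternative, 795 kept the call or its absence, 14 gained the call, 0 lost it and 0 reversed. The count called lower, 1 as reported, was 2 with median scaling, 2 with 75th percentile scaling and 7 without clone E2. Of all genes, 2.69%, 1.95% and 8.66% were lower there, against 1.44% as reported. The count was 2 with an intensity trend and 5 with clone as a random block, where the share of all genes is not given here. Median scaling moved the median of all genes to −0.20 and of the members to −0.80. For single clones against B7, the members higher in E2 (1) were 2 with offset 50, 0 with median scaling, 2 with probes detected on all 12 arrays and 2 with an intensity trend. Those higher in E6 (0) were 1 with offset 50, 1 with probes on all 12 arrays and 1 with the trend, those higher in E3 (0) were 1 with the mean over probes, and those lower in E2 (14) were 9 with the authors' values. Against the other tolerant clones, median scaling gave 24 lower in D6 (10), 13 higher in E3 (6) and 1 lower in E3 (2). The shares of all genes called in single clones under these alternatives are not given here. The changes in count may therefore not be particular to the members. The cause was not tested.

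Leaving out each array in turn gave 1 to 2 members lower in the tolerant clones and, against B7, 8 to 14 lower in E2 and 0 to 1 higher in E6. Against the other tolerant clones it gave 0 to 1 higher and 4 to 10 lower in D6, 11 to 18 lower in E1, 3 to 8 higher and 1 to 2 lower in E3, and 0 to 1 higher and 0 to 1 lower in E6. With the replicate number as a block, 25 members were lower than B7 in D6, 26 in E1, 13 in E2, 18 in E3 and 23 in E6, and the F test called 21. The shares of all genes beside these counts, and beside those with an array left out, are not given here. All genes called ran from 32 to 1038 higher and from 49 to 1060 lower over these alternatives (171 and 176 as reported), the most without E2. Signal over background limits PSMD9, which 1 of 12 arrays did not detect.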

Other observations

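The genes beside PSMD2 on chromosome 3 were examined after its value was seen, by RefSeq gene order (8 tested genes on each side). EIF4G1, the next gene and a scaffold of translation initiation, differed by −1.58 between the tolerant clones and B7 and was called lower (limma adjusted p = 0.0171). ECE2, on the other side, differed by −1.13 (limma adjusted p = 0.105). Of the 16 neighbours 1 was called lower and 0 higher, where 1.44% and 1.40% of all genes were, 8 lay below 0, and their median difference was −0.05.

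Around PSMC1, in E3 against the other tolerant clones, 3 of 16 neighbours were called lower and 6 higher, where 16.3% of all genes were lower and 15.5% higher. Around PSMA3, in E1 against the other tolerant clones, 7 of 16 were called lower and 1 higher, with a median of −0.17, where 22.3% of all genes were lower and 24.0% higher.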
